A study of Mus musculus with 11 samples.

Results

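The 9 genes described here are 5 fibroblast growth factors (Fgf2, Fgf7, Fgf9, Fgf10 and Fgf18) and the 4 tyrosine kinase receptors of the family (Fgfr1 to Fgfr4). They are a fixed list of symbols, drawn up with earlier results of these data known, and all 9 were found among the 24967 distinct gene names of the bulk table and among the 27933 to 31017 names of the single-cell matrices. The study measured RNA in mouse small-intestinal mesenchyme, the connective tissue beneath the epithelium, after the muscle had been stripped and the epithelium removed with EDTA. Bulk libraries came from 4 sorted populations, with 2 libraries each. GFPHi cells (labelled telocytes, subepithelial fibroblasts that contact the crypt and villus epithelium) and GFPLo cells (labelled PDGFRAlo stromal cells) were both sorted from transgenic PDGFRAH2BEGFP mice, in which a nuclear GFP reports Pdgfra expression. CD31+LYVE1- cells (labelled intestinal endothelial cells, called blood endothelium below) and CD31+LYVE1+ cells (labelled lymphatic endothelial cells) were sorted with antibodies from C57BL/6 mice, so strain and sorting method cannot be told apart from the contrast of PDGFRA populations with endothelium. Droplet single-cell libraries comprised 1 of sorted PDGFRA-GFP cells, loaded as GFPlo and GFPhi cells at 2:1, and 2 of whole mesenchyme, for which no strain is labelled and whose protocol text repeats the sort. No treatment, age or sex is given, and nothing states whether the libraries of a group came from different mice, so p-values measure the spread between libraries, which may be technical.

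Fibroblast growth factors are secreted proteins that bind heparan sulphate and a receptor on the target cell, and the receptors signal through the adaptor Frs2 to the Ras and MAP kinase cascade. Fgf7 and Fgf10 are mesenchymal ligands that act mainly on the epithelial splice form of Fgfr2, while Fgf9 and Fgf18 act mainly on the mesenchymal splice forms of Fgfr1 to Fgfr3. Fgf2 lacks a classical secretion signal and binds several receptors. In the gut, Fgf10 and Fgf9 are known for roles in the growth of the epithelium and the mesenchyme during development. Gene-level counts do not separate the receptor splice forms, so the 2 forms of Fgfr2 are summed here.

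The promoters of the 3 ligands whose levels differed most between the mesenchymal populations are shown first, because Fgf9 marked one population and Fgf7 and Fgf10 the other. Each line holds the 250 bases before a start site in the RefSeq promoter set (GRCm38.p6, plus strand), written 5′ to 3′ in lower case, with any match to 6 searched motifs in capitals. The Fgf9 window lies at chr14:58072436-58072685, before a start that lies downstream of the first base RefSeq gives the gene, that of Fgf7 at chr2:126034408-126034657 and that of Fgf10 at chr13:118714449-118714698.

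Fgf9: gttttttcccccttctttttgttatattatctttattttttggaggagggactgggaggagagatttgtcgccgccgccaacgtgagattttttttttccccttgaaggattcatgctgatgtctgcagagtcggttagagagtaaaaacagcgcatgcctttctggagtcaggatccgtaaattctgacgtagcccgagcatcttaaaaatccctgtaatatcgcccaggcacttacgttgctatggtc

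Fgf7: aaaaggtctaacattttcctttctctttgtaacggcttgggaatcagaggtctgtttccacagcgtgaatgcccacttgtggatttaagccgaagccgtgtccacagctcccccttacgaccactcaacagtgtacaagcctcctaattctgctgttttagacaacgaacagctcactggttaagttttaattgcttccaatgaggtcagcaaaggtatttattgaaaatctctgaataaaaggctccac

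Fgf10: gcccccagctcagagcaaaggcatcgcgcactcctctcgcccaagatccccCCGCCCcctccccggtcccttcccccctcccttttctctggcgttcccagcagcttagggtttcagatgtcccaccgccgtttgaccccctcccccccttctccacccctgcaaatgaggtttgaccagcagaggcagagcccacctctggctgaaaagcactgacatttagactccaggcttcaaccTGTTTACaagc

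The motifs were a TATA box (TATAAA), a GC box (GGGCGG), a forkhead site (TGTTTAC), a GLI site (GACCACCCA), an AP-1 site (TGANTCA) and a cyclic AMP response element (TGACGTCA), searched on both strands. Fgf10 held 1 GC box on the reverse strand, at position -199 from the start, and 1 forkhead match, at -11. Fgf9 and Fgf7 held none of the 6. Of 32851 mouse promoters of this length, 32.74% held the GC box, 3.166% the forkhead match, 12.37% the TATA box, 6.749% the AP-1 site, 1.546% the cyclic AMP element and 0.2253% the GLI site. GC content was 44.8% for Fgf9 and 43.6% for Fgf7, below the median of 52.4% over all promoters, and 61.2% for Fgf10. Of the 9 genes, 8 were matched in the promoter table, and the GC boxes of Fgf2, Fgf18, Fgfr3 and Fgfr4 were the only other matches, while Fgfr2 held none.

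In GRCm38 the ligands lie on chromosome 3 (Fgf2, 37348477 to 37410106), chromosome 2 (Fgf7, 126034658 to 126091185), chromosome 14 (Fgf9, 58070671 to 58112854), chromosome 13 (Fgf10, 118714699 to 118792573) and chromosome 11 (Fgf18, 33116970 to 33147400, minus strand). The receptors lie on chromosome 8 (Fgfr1, 25518759 to 25575718), chromosome 7 (Fgfr2, 130162451 to 130266808, minus strand), chromosome 5 (Fgfr3, 33721724 to 33737068) and chromosome 13 (Fgfr4, 55152818 to 55168759). Antisense transcripts overlap 640 exon bases of Fgf2 (Nudt6, 9.44% of its exons) and 998 of Fgfr3 (G630022F23Rik, 13.9%), with shorter overlaps of 123 bases in Fgf10 and 164 in Fgfr1. The strand setting of the bulk counts is not given in the sources used here, so reads in those bases cannot be assigned to a strand. On the same strand, 255 exon bases of Fgf2 (3.76%) are shared with Gm43439 and 314 of Fgfr2 (3.04%) with Ctbp2. Strand would not separate these genes. Ctbp2 was at 70.5 and 90.1 CPM in telocytes and at 49.1 and 35.5 CPM in PDGFRAlo cells. Nudt6 itself was at 8.48 and 8.96 CPM in telocytes and at 10.2 and 6.49 CPM in blood endothelium, where Fgf2 was nearly absent.

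The sorted populations showed their defining genes, with other cells mixed into some. Pdgfra stood at 2401 and 2972 CPM (counts per 1000000 counts, scaled between libraries by TMM) in telocytes, 330 and 471 in PDGFRAlo cells, and 0.54 to 30.2 in the endothelial libraries, of which replicate 2 of blood endothelium was the highest. Pecam1, which encodes CD31, reached 299 and 93.4 CPM in PDGFRAlo cells, against 8.20 and 3.39 in telocytes and 802 and 909 in blood endothelium. Lymphatic endothelium, also sorted on CD31, held 123 and 198 CPM of Pecam1. The 6 lymphatic endothelial markers summed to 3958 and 7557 CPM there, against 90.0 and 183 CPM in blood endothelium. Macrophage or dendritic cell markers (8 genes) summed to more, 13592 and 17466 CPM, in the same lymphatic libraries. The 5 plasma-cell markers summed to 169975 and 65449 CPM in lymphatic endothelium, against 4747 and 4746 in blood endothelium. Library totals ran from 8549348 to 55382442 counts. In bulk RNA, fewer cells of a type and less RNA per cell cannot be told apart.

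The bulk comparison of telocytes with PDGFRAlo cells asks which FGF signals each PDGFRA-expressing population makes and can receive. Of the 9 genes, Fgf9 was higher in telocytes, Fgf7, Fgf10, Fgfr2 and Fgfr3 were lower, and 4 did not pass (edgeR quasi-likelihood test, Benjamini-Hochberg adjusted p under 0.05 over 14893 genes). Over all tested genes 14.9% passed, 2.77% higher and 12.1% lower in telocytes. The 2 groups did not overlap for 7 of the 9 genes, beside 61.8% of all genes, and the median log2 difference of the 9 was -3.77 beside -0.03 for all genes.

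Fgf9 read 151 and 125 CPM in the telocyte libraries and 3.57 and 5.22 CPM in the PDGFRAlo libraries. Blood endothelium held 1.28 and 0.96 CPM and lymphatic endothelium 0.14 and 1.95 CPM. Both telocyte libraries stood far above the other 6, and the 3 remaining populations lay within a few CPM of each other. The telocyte mean of 138 ± 18.1 CPM (SD, n = 2) exceeded the PDGFRAlo mean of 4.39 ± 1.17 CPM by 4.97 ± 0.65 on the log2 scale (SE, edgeR adjusted p = 0.0012). Against blood endothelium the log2 difference was 6.92 (edgeR adjusted p = 0.000105) and against lymphatic endothelium 6.85 (edgeR adjusted p = 0.000113). The small excess of Fgf9 in PDGFRAlo cells over blood endothelium, 1.96 on the log2 scale (edgeR adjusted p = 0.0286), did not pass without PDGFRAlo replicate 2 (adjusted p = 0.119) or without blood endothelium replicate 1 or 2 (adjusted p = 0.0812 and 0.109), nor did its excess over lymphatic endothelium in fits that left out 1 library of telocytes, PDGFRAlo or blood endothelium, or lymphatic endothelium replicate 1 (adjusted p from 0.0502 to 0.145).

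Fgf7, the keratinocyte growth factor, had the opposite distribution. PDGFRAlo cells held 47.8 and 54.5 CPM, telocytes 3.85 and 2.12, blood endothelium 0.95 and 3.56, and lymphatic endothelium 0 and 0.07. Telocytes were lower than PDGFRAlo cells by -4.10 ± 0.66 on the log2 scale (SE, edgeR adjusted p = 0.00313), with group means of 2.98 ± 1.22 and 51.1 ± 4.75 CPM (SD, n = 2). The telocyte and blood endothelial values of Fgf7 overlapped, with a log2 difference of 0.42 (edgeR adjusted p = 0.583), and without blood endothelium replicate 2 that difference was 1.64 and passed (adjusted p = 0.0372). That replicate, which had the higher Fgf7, also had the higher Pdgfra of the blood endothelial pair, and the 6 fibroblast markers summed to 274 and 313 CPM there. Their part in the Fgf7 value was not tested. Smooth muscle markers summed to 1718 and 1167 CPM in telocytes and to 676 and 381 CPM in PDGFRAlo cells. The part of smooth muscle cells in the Fgf7 values was not tested either.

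Fgf10, a ligand of epithelial Fgfr2, was counted 314 and 189 times in the PDGFRAlo libraries (20.7 and 8.73 CPM) and 0 times in either telocyte library. Blood endothelium held 4 and 19 counts and lymphatic endothelium 2 and 0. PDGFRAlo cells were thus alone in holding more than 1 CPM. With 3 counts over the group as the limit for telocytes, Fgf10 was at least 139-fold higher in PDGFRAlo cells (edgeR adjusted p = 0.00643).

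The remaining ligands were scarce in bulk. Fgf2, the basic fibroblast growth factor, read 3.14 and 3.09 CPM in telocytes and 2.05 and 3.10 CPM in PDGFRAlo cells, and these overlapping values did not differ beyond their spread (log2 0.27, edgeR adjusted p = 0.901). Endothelium held 3 Fgf2 counts in all, every one of them in blood endothelium replicate 1. The telocyte level was 68.6 times that of blood endothelium (95% counting interval 22.8 to 339). It was 23.1-fold that of lymphatic endothelium taken at 3 counts, with a lower 95% counting limit of 18.4. Fgf18, a ligand of the Fgf8 subfamily, read 1.59 and 3.10 CPM in PDGFRAlo cells, 0.21 and 0.12 in telocytes, 0 and 0.59 in blood endothelium, and 0.14 and 0.20 in lymphatic endothelium. Both PDGFRAlo libraries lay above all others, yet the difference from telocytes did not pass (log2 -3.77, edgeR adjusted p = 0.151). It passed when either blood endothelial library was left out (adjusted p = 0.0408 and 0.0448) and when only the 4 libraries compared were fitted (adjusted p = 0.0309).

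Among the receptors, Fgfr1 was shared by both PDGFRA populations. Its libraries read 286 and 263 CPM in telocytes and 302 and 272 CPM in PDGFRAlo cells, 2 overlapping groups with a log2 difference of -0.06 ± 0.33 (SE, edgeR adjusted p = 0.945). Blood endothelium held 38.2 and 61.4 CPM and lymphatic endothelium 13.1 and 13.0, and the step from telocytes down to blood endothelium was 2.47 on the log2 scale (edgeR adjusted p = 0.000496). Fgfr2 read 85.0 and 131 CPM in telocytes and 477 and 263 CPM in PDGFRAlo cells. The groups did not overlap, but the PDGFRAlo pair spread widely (370 ± 151 CPM, SD, n = 2). The log2 difference of -1.77 ± 0.50 (SE) passed narrowly (edgeR adjusted p = 0.042) and did not pass without telocyte replicate 1 (-1.51, adjusted p = 0.267), telocyte replicate 2 (-2.12, 0.118) or PDGFRAlo replicate 1 (-1.26, 0.20). Endothelium held 2.68 to 5.25 CPM of Fgfr2 in blood vessels and 0.14 and 0.61 CPM in lymphatics.

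Fgfr3 divided the PDGFRA populations most clearly among the receptors. It read 0.64 and 0.24 CPM in telocytes, 28.9 and 14.7 in PDGFRAlo cells, 14.8 and 13.0 in blood endothelium and 0.81 and 1.21 in lymphatic endothelium. Telocytes were lower than PDGFRAlo cells by -5.63 ± 0.65 on the log2 scale (SE, edgeR adjusted p = 0.000679) and lower than blood endothelium by -4.98 (edgeR adjusted p = 0.000277). PDGFRAlo cells and blood endothelium overlapped (log2 0.65, edgeR adjusted p = 0.320). Of the PDGFRAlo libraries, replicate 1 had the higher Fgfr3 and the higher Pecam1. Fgf10, Fgfr1 and Fgfr2 were also higher in that library, and the other genes described here were lower. The 7 blood endothelial markers summed to 2987 CPM in replicate 1 and to 1008 CPM in replicate 2, against 16049 and 16998 CPM in blood endothelium itself. The part of endothelial cells in the PDGFRAlo level of Fgfr3 was not tested. Fgfr4, the receptor best known in liver, read 4.82 and 6.05 CPM in PDGFRAlo cells and at most 0.43 CPM elsewhere, and its difference from telocytes did not pass (log2 -4.68, edgeR adjusted p = 0.0993) but did without the filter on low counts (adjusted p = 0.00383).

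**Figure D1:**
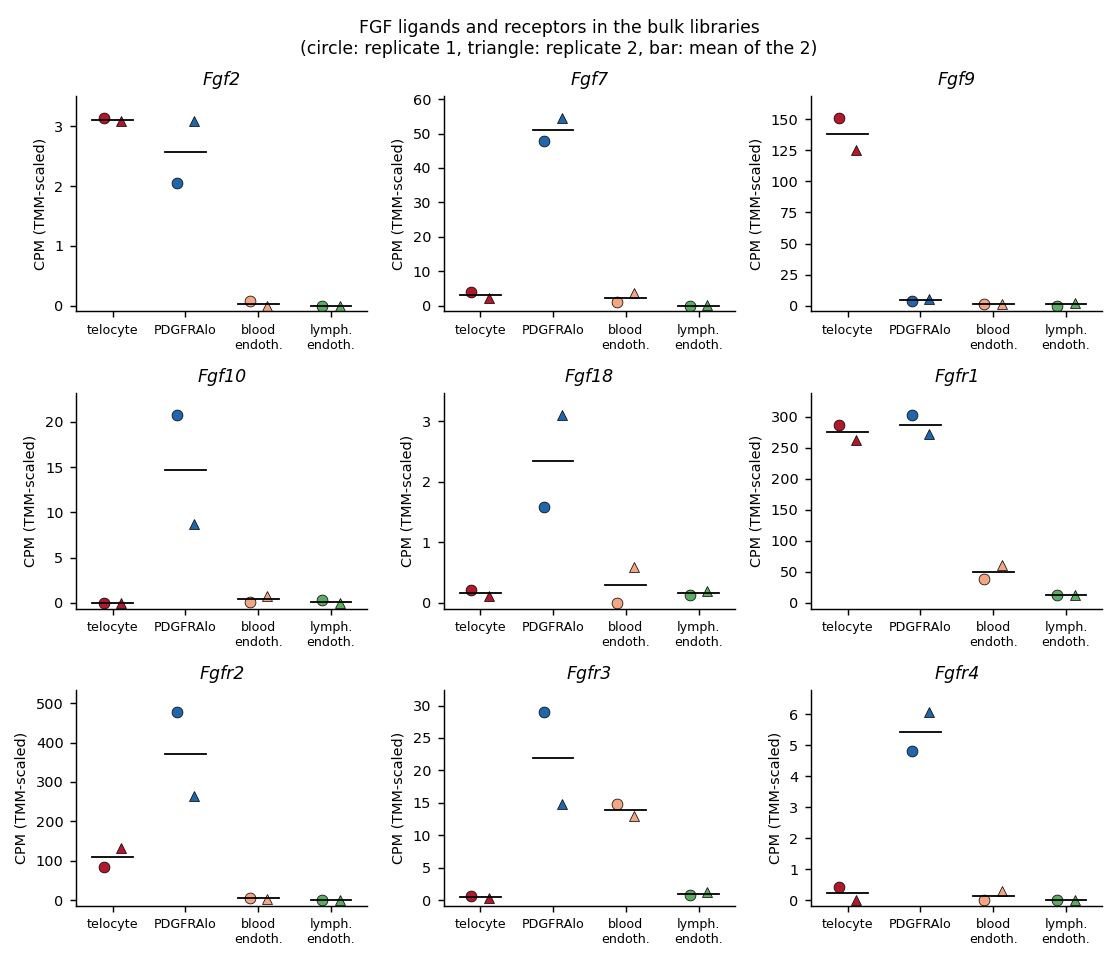
TMM-scaled CPM of the 9 genes (y axes) in the 8 bulk libraries, grouped by sorted population (x axes), with circles for replicate 1, triangles for replicate 2 and a bar at the mean. Fgf9 is high in both telocyte libraries (151 and 125 CPM), Fgf7 and Fgf10 in both PDGFRAlo libraries, and Fgfr1 at 263 to 302 CPM in both populations.

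Levels of different genes were compared per kilobase of exon (RPKM), with the caution that the Fgfr2 exon length includes read-through exons. Of the 5 ligands, Fgf9 was the most abundant in telocytes at 29.7 RPKM, beside 27.8 RPKM of Fgfr1, and the other 4 stayed under 1 RPKM. In PDGFRAlo cells Fgf7 led the ligands at 15.7 RPKM, followed by Fgf10 at 3.20, Fgf18 at 1.97, Fgf9 at 0.945 and Fgf2 at 0.379 RPKM. Their receptors ran from 35.8 RPKM for Fgfr2 and 29.1 for Fgfr1 to 3.05 for Fgfr3 and 1.54 for Fgfr4. Telocytes held 10.5 RPKM of Fgfr2 and about 0.06 RPKM of Fgfr3 and Fgfr4. Blood endothelium held 5.04 RPKM of Fgfr1 and 1.94 of Fgfr3, and lymphatic endothelium 1.32 RPKM of Fgfr1.

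Blood and lymphatic endothelium differed in their receptors. Fgf7, Fgfr1, Fgfr2 and Fgfr3 were higher in blood endothelium and the other 5 genes did not pass, where 23% of all genes passed, 14.7% higher and 8.32% lower. Fgfr3 was higher by 3.74 ± 0.59 (log2, SE, edgeR adjusted p = 0.00355) and Fgfr1 by 1.93 ± 0.35 (edgeR adjusted p = 0.0058). The Fgfr1 difference was not seen between the gated single-cell classes described below. Fgfr2 was higher by 3.21 (edgeR adjusted p = 0.00978), which was lost without lymphatic replicate 1 (adjusted p = 0.0535). For Fgf7 there were 125 counts against 1, a ratio of 42.1 (95% counting interval 7.42 to 1676, edgeR adjusted p = 0.00892). The call was lost without lymphatic replicate 1 (log2 4.92) or 2 (log2 8.48). Blood endothelium replicate 2, which had the higher Pdgfra of that pair, held 85 of the 125 counts. No Fgf7 UMI was found in the blood or lymphatic endothelium-like single cells described below. The part of other cells in the bulk Fgf7 counts was not tested. The lymphatic libraries also carried the plasma-cell transcripts given above, more macrophage or dendritic cell markers (8 genes, 13592 and 17466 CPM, against 4003 and 2882 CPM in blood endothelium) and more B cell markers (5 genes, 2269 and 757 CPM against 167 and 65.8 CPM), and the part of these cells in the differences was not tested.

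Across the PDGFRA populations together against both endothelia, 6 genes were higher (Fgf2, Fgf7, Fgf9, Fgfr1, Fgfr2 and Fgfr4), none lower, and 3 did not pass, where 60.5% of all genes passed, 28.8% higher and 31.7% lower. The contrast averages 2 populations a side, and the libraries of the sides overlapped for Fgf7 and Fgfr4. Telocytes did not pass against blood endothelium in either gene (edgeR adjusted p = 0.583 and 0.772). Against lymphatic endothelium they passed in Fgf7 (edgeR adjusted p = 0.00219) and not in Fgfr4 (0.232). Among the receptors, Fgfr2 was higher by 7.25 on the log2 scale (edgeR adjusted p = 5.88e-06) and Fgfr1 by 3.46 (edgeR adjusted p = 1.03e-05). Fgfr3 did not pass (log2 -0.30, edgeR adjusted p = 0.549), with PDGFRAlo cells and blood endothelium high and the other 2 populations low. The Fgfr4 call (log2 5.18, edgeR adjusted p = 0.0263) was lost with DESeq2 (adjusted p = 0.135). It was also lost without PDGFRAlo replicate 2 (log2 5.08) or lymphatic replicate 1 or 2 (log2 5.24 and 5.21). Without telocyte replicate 1 the fit gave no usable estimate (log2 2.67, SE 6261). Telocyte replicate 2 and both lymphatic libraries held 0 Fgfr4 counts. Of the 12 alternatives, Fgf18 passed only without blood endothelium replicate 2 (log2 4.20, adjusted p = 0.0102). In single pairs of populations, PDGFRAlo cells exceeded blood endothelium in 7 genes, where 42.5% of all genes passed (21.2% higher, 21.3% lower), and lymphatic endothelium in 8, where 44.3% passed (24.1% higher, 20.2% lower). Among those calls, Fgf9, Fgf10 and Fgfr4 against blood endothelium and Fgf9 and Fgfr4 against lymphatic endothelium were lost when single libraries were left out, which left 5 to 7 and 6 to 8 calls. With DESeq2 the Fgfr4 calls were also lost (adjusted p = 0.228 against blood and 0.0593 against lymphatic endothelium). Fgf18, not called in PDGFRAlo cells against either, passed against blood endothelium without blood replicate 2 (edgeR adjusted p = 0.00945) and against lymphatic endothelium without blood replicate 1 or 2 (0.0201 and 0.0219) or without the filter (0.0351). Telocytes exceeded blood endothelium in 4 and were lower in 1, Fgfr3, where 52.1% passed (22.6% higher, 29.6% lower), and without blood endothelium replicate 1 also in Fgf10 (adjusted p = 0.0283). They exceeded lymphatic endothelium in 5, where 51% passed (24% higher, 27% lower).

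The single-cell libraries resolved these levels by cell class. After filters on genes detected, mitochondrial share and doublet score, 6128, 5927 and 3845 cells were kept from whole mesenchyme 1, whole mesenchyme 2 and the sorted library, the order in which values are given below. Classes were gated on marker genes that include no FGF gene, with thresholds set after the data were seen, so class names mark gates and not established types. Telocyte-like fibroblasts carried at least 3 of 7 telocyte markers (Foxl1, Sox6, Bmp3, Bmp5, Bmp7, F3 and Wnt5a) and numbered 105, 103 and 832 cells. Grem1-gated fibroblasts carried at least 4 of Grem1, C3, Pi16, Ackr4, Clec3b, Dpt and Sfrp1 and at most 1 telocyte marker, and numbered 761, 703 and 2209. The name is for convenience, since Grem1 itself was not required and 246, 224 and 1023 of these cells held no Grem1 UMI. That marker list was headed CD81 stromal, but Cd81 was not in the gate and only 18.9%, 16.6% and 29.8% of the gated cells held a Cd81 UMI. Other fibroblast-like cells, with fewer markers of either kind, numbered 199, 220 and 242, and their leading genes included Igfbp3, Mmp10 and Aldh1a3. This class held at most 1 telocyte marker and fewer than 4 of the Grem1-gate markers, so shallow cells can fall into it. In the sorted library its median depth was 2872 UMIs, against 4992 in Grem1-gated and 4908.5 in telocyte-like cells. The part of depth in its values was not tested. Levels below are UMIs per 1000000 UMIs of the class (CPM, unscaled) with exact 95% Poisson intervals that cover counting error only, and tests use class sums of the 2 whole-mesenchyme libraries. Between those 2 libraries the chi-square per gene had a median of 0.521 to 0.673 by class, where counting noise alone gives 0.455, and a mean of 1.22 to 4.52, highest in plasma cell-like cells, so they were kept as 2 libraries, and the spread between them may be technical. They shared 9 cell barcodes, and the sorted library shared 1 with whole mesenchyme 1.

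Fgf9 was a telocyte-like transcript in every library. Telocyte-like cells held 103 CPM (81.9 to 129) and 114 CPM (92.2 to 140) in the whole-mesenchyme libraries and 121 CPM (111 to 132) in the sorted library. Grem1-gated fibroblasts held 0.52, 0.93 and 6.78 CPM, and other fibroblast-like cells 0, 0.71 and 20.4 CPM. The 3 telocyte-like intervals overlapped one another and lay above those of the other fibroblast classes. Beside the higher Fgf9 of the non-telocyte classes in the sorted library, barcodes with at most 100 UMIs, taken as free RNA, held 11.4 CPM there and 1.62 and 0.786 CPM in whole mesenchyme, and its part was not tested.

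An Fgf9 UMI was present in 35.2%, 41.7% and 39.3% of telocyte-like cells, and in 18.3%, 24.3% and 23.0% after each cell was thinned to 2500 UMIs, which left out the 1, 0 and 35 telocyte-like cells that were shallower. Among T or innate lymphoid cell-like cells, which should lack the gene, it was present in 0.0609% and 0.0615%. Median depth was 7299, 7743 and 4908.5 UMIs in telocyte-like cells and 3553 and 3534 in the lymphoid cells. Against Grem1-gated fibroblasts the log2 difference was 6.92 ± 0.37 (SE, edgeR adjusted p = 3.71e-15). Against other fibroblast-like cells there were 173 UMIs against 1, a ratio of 298 (95% counting interval 52.7 to 11826, edgeR adjusted p = 5.07e-12).

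Fgf7 was highest in a class that had no sort gate of its own in bulk. Smooth muscle-like cells of whole mesenchyme held 44.1 and 50.3 CPM, Grem1-gated fibroblasts 21.6, 22.7 and (sorted) 33.0 CPM, other fibroblast-like cells 5.31, 6.37 and 6.37, and telocyte-like cells 9.17, 4.85 and 0.94. No Fgf7 UMI was found in blood or lymphatic endothelium-like or glia-like cells, which allows levels up to 3.56 CPM in blood endothelium-like cells of whole mesenchyme 2 and 28.4 CPM in its few glia-like cells. Grem1-gated cells were lower than smooth muscle-like cells by -0.89 ± 0.21 on the log2 scale (SE, edgeR adjusted p = 0.00129). They were higher than other fibroblast-like cells by 2.04 ± 0.33 (edgeR adjusted p = 2.78e-05), and telocyte-like cells were lower than Grem1-gated cells by -1.89 ± 0.38 (edgeR adjusted p = 0.00028). Telocyte-like and other fibroblast-like cells did not differ beyond their spread (log2 0.15, edgeR adjusted p = 0.928). An Fgf7 UMI was present in 13.5%, 13.7% and 13.8% of Grem1-gated cells (5.78%, 6.17% and 6.94% after thinning, without 17, 6 and 321 shallower cells) and in 0.183% and 0.0615% of lymphoid cells.

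Fgf10 peaked in the other fibroblast-like class. That class held 40.9, 29.7 and 20.4 CPM, Grem1-gated cells 13.1, 16.4 and 8.66 CPM, smooth muscle-like cells 6.57 and 9.82 CPM, and telocyte-like cells 1.31, 1.21 and 0 CPM. Grem1-gated cells were lower than other fibroblast-like cells by -1.12 ± 0.24 (log2, SE, edgeR adjusted p = 0.00119), a call that DESeq2 did not make (-1.14, adjusted p = 0.414). Telocyte-like cells held 2 UMIs against 96 in other fibroblast-like cells, so the latter were 27.9 times higher (95% counting interval 7.51 to 234, edgeR adjusted p = 1.25e-06), and against Grem1-gated cells the ratio was 11.7 (3.18 to 97.2, edgeR adjusted p = 0.000139). Grem1-gated cells exceeded smooth muscle-like cells (log2 1.07, edgeR adjusted p = 0.0394). In other fibroblast-like cells an Fgf10 UMI was present in 21.6%, 16.8% and 6.20% (8.42%, 6.80% and 6.43% after thinning, which left out 9, 14 and, of the 242 sorted cells, 102), and in no lymphoid cell.

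Fgf2, similar in both PDGFRA populations in bulk, was likewise spread over the mesenchymal classes. Glia-like cells held 82.3 CPM (46.1 to 136) and 75.8 CPM (32.7 to 149), from 36 and 24 cells. Telocyte-like cells held 40.6, 23.1 and 19.9 CPM, Grem1-gated cells 38.3, 31.9 and 13.6, other fibroblast-like cells 34.9, 26.9 and 21.6, and smooth muscle-like cells 33.8 and 17.2 CPM. Glia-like cells did not differ beyond the spread from Grem1-gated cells, their neighbour in this order (log2 of Grem1-gated over glia-like -0.86, edgeR adjusted p = 0.114), and exceeded telocyte-like cells by 1.24 (edgeR adjusted p = 0.0383) and smooth muscle-like cells by 1.49 (edgeR adjusted p = 0.0121). The 3 fibroblast classes did not differ from one another beyond their spread in any pair (edgeR adjusted p from 0.315 to 0.957). Fgf18 was at or below 2.82 CPM in every gated class, from 0 to 27 UMIs each, and T or innate lymphoid cell-like cells held 1.26 and 0.89 CPM, so no order of its levels is read at this depth.

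The receptors differed in breadth. Fgfr1 reached 198 and 237 CPM in glia-like cells, 201, 201 and 149 in Grem1-gated fibroblasts, 177, 178 and 131 in other fibroblast-like cells and 161, 152 and 132 in telocyte-like cells. Lymphatic endothelium-like cells followed at 125 and 81.4 CPM, smooth muscle-like cells at 91.1 and 90.8, blood endothelium-like cells at 70.5 and 70.0, macrophage or dendritic cell-like cells at 23.8 and 25.9, and plasma cell-like cells at 0.34 and 0.60 CPM. Glia-like and Grem1-gated cells did not differ (edgeR adjusted p = 0.536), nor did lymphatic and blood endothelium-like cells (edgeR adjusted p = 0.239). In bulk, by contrast, Fgfr1 was higher in blood than in lymphatic endothelium by 1.93 on the log2 scale. The part of other cells in that bulk difference was not tested. Telocyte-like cells were lower than Grem1-gated cells by -0.59 ± 0.10 (log2, SE, edgeR adjusted p = 2.25e-05), and Grem1-gated cells were above other fibroblast-like cells by 0.31 ± 0.08 (edgeR adjusted p = 0.00809). These log2 differences rest on TMM scaling, without which the median gene stood 0.24 higher in telocyte-like than in Grem1-gated cells and at -0.14 (log2) in Grem1-gated against other fibroblast-like cells.

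Fgfr2 differed between all 3 fibroblast classes. Other fibroblast-like cells held 378, 373 and 232 CPM, Grem1-gated cells 137, 126 and 68.9, telocyte-like cells 60.2, 49.7 and 24.4, smooth muscle-like cells 43.2 and 33.1, and blood endothelium-like cells 3.26 and 3.56 CPM. In each library the 3 fibroblast classes kept this order with intervals that did not overlap. Other fibroblast-like cells exceeded telocyte-like cells (telocyte-like lower by -2.86 ± 0.13, log2, SE, edgeR adjusted p = 4.39e-17) and Grem1-gated cells (lower by -1.38 ± 0.07, edgeR adjusted p = 4e-15), and telocyte-like cells were below Grem1-gated cells by -1.48 ± 0.14 (edgeR adjusted p = 6.69e-10). Smooth muscle-like and telocyte-like cells did not differ beyond their spread (edgeR adjusted p = 0.133). An Fgfr2 UMI was present in 73.4%, 73.6% and 33.9% of other fibroblast-like cells (45.8%, 52.4% and 34.3% after thinning), whose median depth was 6592, 6584.5 and 2872 UMIs, and in 0.914% and 0.738% of lymphoid cells.

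Fgfr3 was mainly a blood endothelial transcript among single cells. Blood endothelium-like cells held 45.6 CPM (32.8 to 61.6) and 62.9 CPM (47.1 to 82.3), lymphatic endothelium-like cells 2.51 and 8.72, Grem1-gated fibroblasts 6.73, 6.15 and 4.33, other fibroblast-like cells 1.52, 2.83 and 1.27, and telocyte-like cells 0, 1.21 and 0 CPM. Blood endothelium-like cells exceeded lymphatic ones by 3.52 ± 0.63 (log2, SE, edgeR adjusted p = 5.37e-05), and Grem1-gated cells were below them by -2.96 ± 0.33 (edgeR adjusted p = 4.64e-09). Grem1-gated cells held 72 Fgfr3 UMIs against 1 in telocyte-like cells, a ratio of 10.2 (95% counting interval 1.78 to 410, edgeR adjusted p = 0.0137, DESeq2 adjusted p = 0.0774). The 7 blood endothelial markers summed to 8.95 to 16.9 CPM in Grem1-gated cells and to 7917 and 7687 CPM in blood endothelium-like cells. Whereas Grem1-gated cells stood well below blood endothelium-like cells in Fgfr3, the bulk PDGFRAlo libraries (28.9 and 14.7 CPM) overlapped bulk blood endothelium, and the part of endothelial cells in that bulk level was not tested. Fgfr4 was confined to low levels: 6.07, 14.1 and 11.5 CPM in other fibroblast-like cells, 1.90, 2.61 and 1.98 in Grem1-gated cells, and 0 UMIs in telocyte-like cells of all 3 libraries. With telocyte-like cells of whole mesenchyme taken at 3 UMIs, other fibroblast-like cells stood 5.42-fold above them.

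**Figure D2:**
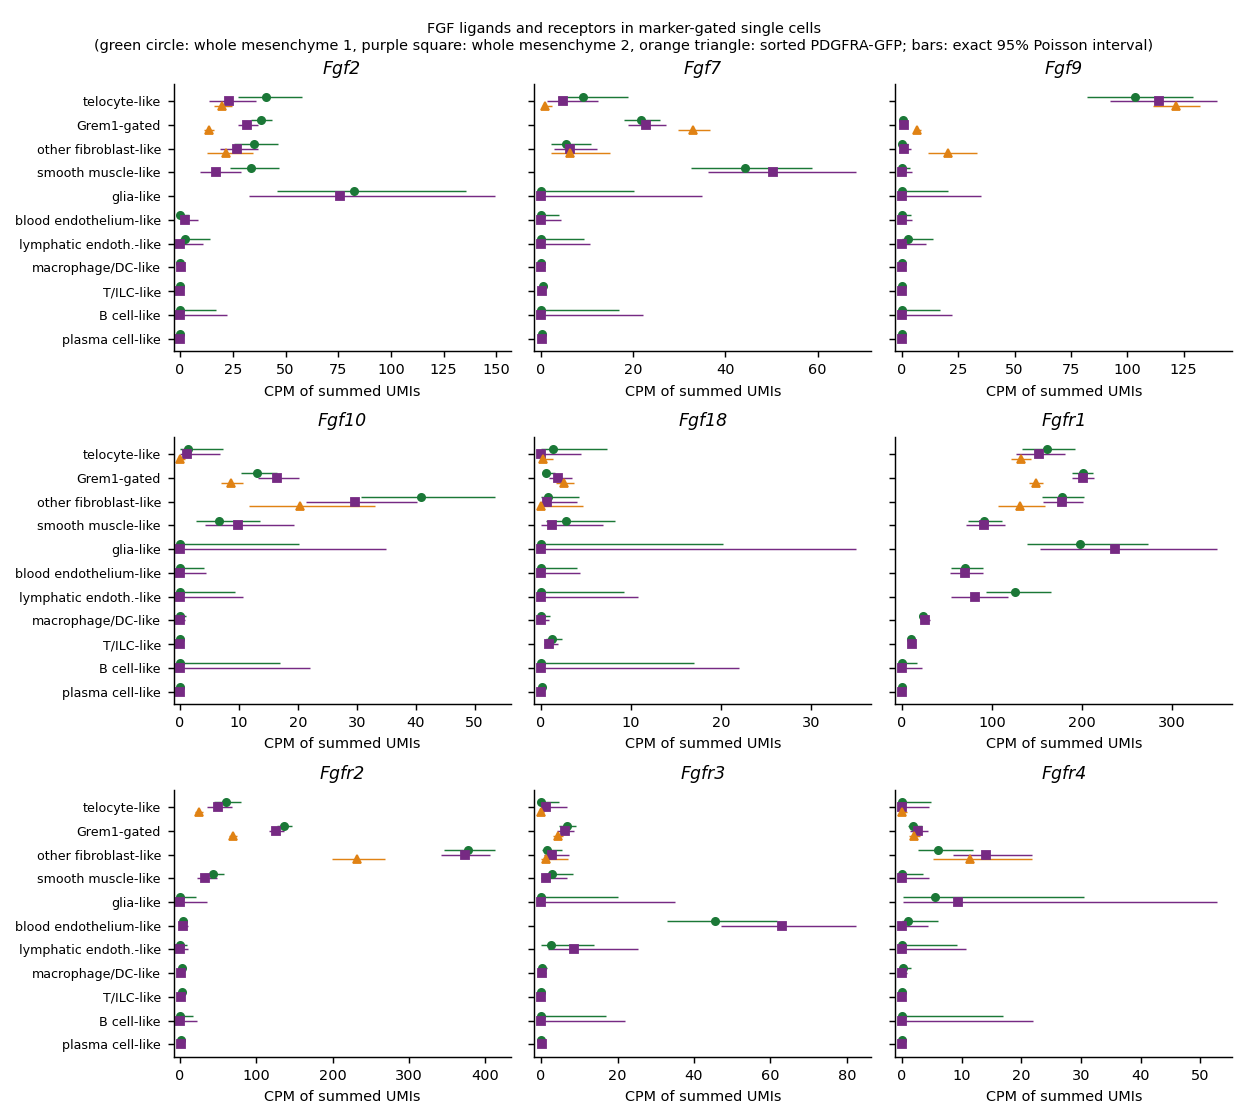
CPM of summed UMIs for the 9 genes (x axes) in 11 gated classes (y axes), with green circles for whole mesenchyme 1, purple squares for whole mesenchyme 2, orange triangles for the sorted library and bars for exact 95% Poisson intervals. Fgf9 stands at 103 to 121 CPM in telocyte-like cells, Fgfr2 at up to 378 CPM in other fibroblast-like cells and Fgfr3 at 45.6 and 62.9 CPM in blood endothelium-like cells.

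In counts over the 7 genes that could be tested, telocyte-like cells were higher than Grem1-gated cells in 1 (Fgf9) and lower in 5, with Fgf2 not passing, where 26.5% of all genes passed (12% higher, 14.5% lower). They were higher than other fibroblast-like cells in 1 and lower in 2, Fgf10 and Fgfr2, where 18.6% passed (8.13% higher, 10.4% lower). Grem1-gated cells were higher than other fibroblast-like cells in Fgf7 and Fgfr1 and lower in Fgf10 and Fgfr2, where 13.1% passed (6.97% higher, 6.08% lower). The median log2 difference of the 7 was -1.48, -0.27 and 0.32 in these 3 comparisons, beside -0.04, -0.03 and 0.01 over 11915 genes. Fgf18 and Fgfr4 were too sparse to be tested. In the other pairs of classes whose calls are given above, the share of all genes that passed was 37.4% for Grem1-gated against smooth muscle-like, 22.5% for Grem1-gated against glia-like, 52.7% for Grem1-gated against blood endothelium-like, 22.1% for glia-like against telocyte-like, 22.3% for glia-like against smooth muscle-like, 26.6% for smooth muscle-like against telocyte-like and 26% for blood against lymphatic endothelium-like cells. Fgf7 and Fgf10, both low in telocytes and high in PDGFRAlo cells in bulk, thus stood in opposite order between the 2 non-telocyte fibroblast classes.

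Grem1-gated fibroblasts were also divided by Cd81, the gene for which their marker list was named, a split chosen after values were seen and given as a description. A Cd81 UMI was present in 144 of 761, 117 of 703 and 659 of 2209 cells, whose median depth was 8547, 8239 and 5070 UMIs, against 7526, 7407.5 and 4937.5 UMIs in cells without one, and in 0%, 3.88% and 1.92% of telocyte-like cells. Fgf7 stood at 37.8 against 17.3 CPM, 39.1 against 19.0 CPM and 48.9 against 25.9 CPM in cells with and without it, ratios of 2.19 (95% counting interval 1.49 to 3.19), 2.06 (1.37 to 3.05) and 1.89 (1.52 to 2.34). Fgf10 ran the other way, with 1 UMI against 75, 3 against 85 and 3 against 89, or 0.82, 3.01 and 0.91 CPM against 16.4, 19.5 and 12.1 CPM. Fgfr2 was lower with Cd81, at ratios of 0.248, 0.147 and 0.195, and Fgfr4 had no UMI with Cd81 and 11, 14 and 21 without. Fgfr1 did not follow the split, at ratios of 0.932, 1.01 and 1.11 whose intervals include 1. Fgf9 in the sorted library stood at 63 UMIs against 9, a ratio of 15.6 (7.72 to 35.7), and in whole mesenchyme at 2 against 1 and 5 against 0.

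Dividing the same cells by Ackr4 gave Fgf7 ratios of 2.34, 1.50 and 1.88 and Fgf10 ratios of 0.125, 0.325 and 0.183, and dividing them by Grem1 gave Fgf7 ratios of 3.05, 1.44 and 2.14 and Fgf10 ratios of 0.261, 0.747 and 0.292. The intervals of the Grem1 split in whole mesenchyme 2 included 1 for both genes (Fgf7 0.938 to 2.26, Fgf10 0.476 to 1.19). Pi16, also a gate marker, did not divide Fgf7 in the same way: the ratios were 0.809, 1.27 and 1.30, with intervals that included 1 in each library. For Fgf10 there were 0 UMIs with Pi16 against 76 without, 2 against 86 and 1 against 91. Cells with Pi16 were a small part of the class: in whole mesenchyme 1, Fgfr1 had 65 UMIs with it against 1098 without, a ratio of 1.15. The Fgf10 ratio was 0.370 in whole mesenchyme 2 (0.0441 to 1.38, which includes 1) and 0.0880 in the sorted library (0.00221 to 0.503). Few cells held UMIs of both ligands: in Grem1-gated cells Fgf7 and Fgf10 were found together in 5, 7 and 9 cells, where the product of their shares gives 8.93, 9.70 and 10.7. Fgf10 and Fgfr2 were found together in 46, 46 and 39 such cells, where the product gives 34.7, 34.7 and 19.2. In telocyte-like cells Fgf9 and Fgfr1 were found together in 22, 28 and 167 cells, close to the products of 23.3, 27.1 and 158.

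**Figure D3:**
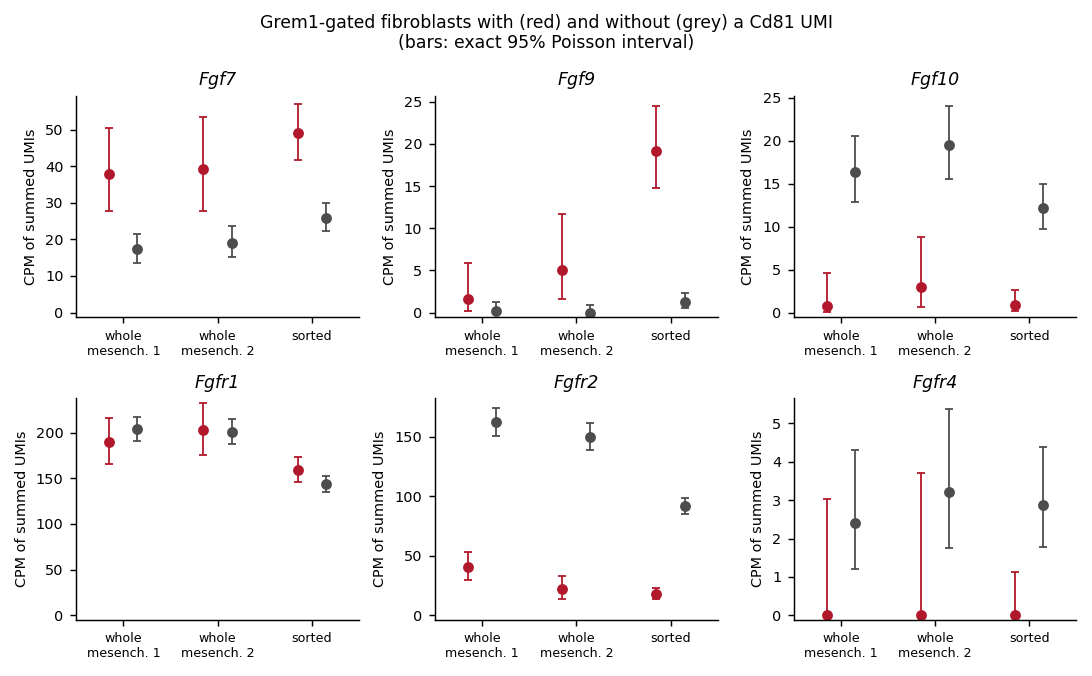
CPM of summed UMIs for 6 of the 9 genes (y axes) in Grem1-gated fibroblasts with (red) and without (grey) a Cd81 UMI, in the 2 whole-mesenchyme libraries and the sorted library (x axes), with exact 95% Poisson intervals. Fgf7 is higher with Cd81 and Fgf10 and Fgfr2 lower in each library, while the Fgfr1 points lie close together.

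The other genes of the pathway, from lists written for this comparison with earlier results of these data known, are given by their counts. In bulk telocytes against PDGFRAlo cells, 3 of 12 tested feedback inhibitors of FGF signalling were higher and 2 lower, where 2.77% of all genes were higher and 12.1% lower, with a median log2 difference of 0.53 beside -0.03 for all genes. Spry1, a Sprouty inhibitor of receptor tyrosine kinase signalling, stood at 750 ± 185 CPM in telocytes and 121 ± 20.1 CPM in PDGFRAlo cells (SD, n = 2, log2 2.64, edgeR adjusted p = 0.00185). Its relative Spry4 stood at 198 ± 77.3 against 32.4 ± 19.6 CPM (log2 2.62, edgeR adjusted p = 0.00906), and Spry2, named after its value was seen, at 42.9 against 15.7 CPM (edgeR adjusted p = 0.0189). The MAP kinase phosphatases Dusp4 and Dusp5 were lower, by -4.20 (edgeR adjusted p = 0.000278) and -2.82 (edgeR adjusted p = 0.00223). A list of 8 dissociation stress genes, which shares Fos and Egr1 with the FGF-induced genes below, moved the same way as these phosphatases and Myc: it summed to 5900 and 12136 CPM in telocytes and to 18323 and 26118 CPM in PDGFRAlo cells, and its part was not tested.

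Of 9 FGF-induced transcription factors and targets, Etv1 was higher in telocytes (113 against 14.0 CPM, log2 3.02, edgeR adjusted p = 0.0426), Myc was lower (22.1 against 102 CPM, log2 -2.20, edgeR adjusted p = 0.00699) and 7 did not pass. Of 15 adaptors and signal transducers 0 were higher and 0 lower (edgeR). Among 12 heparan sulphate enzymes, which shape the co-receptor of FGFs, the sulphatases moved apart: Sulf1 was higher (551 ± 30.9 against 152 ± 25.6 CPM, SD, n = 2, log2 1.86, edgeR adjusted p = 0.0195) and Sulf2 lower (16.3 ± 9.97 against 556 ± 211 CPM, log2 -5.10, edgeR adjusted p = 0.00132), with Hs3st1 also lower (log2 -1.11, edgeR adjusted p = 0.0412). Of 6 tested co-receptors and FGF-binding proteins, Flrt2 (0 against 28.1 CPM) and Flrt3 (0.58 against 80.3 CPM), transmembrane proteins that bind FGF receptors, were lower. Of 5 tested other ligands, Fgf13, an intracellular homologous factor, was lower (0.07 against 11.3 CPM, edgeR adjusted p = 0.0308). Of 6 tested partners of epithelial and mesenchymal FGF signalling, Bmp4, Tbx4 and Foxf1 were higher and Wnt2b lower. Beside the counts of each of these lists, 2.77% of all genes were higher and 12.1% lower in telocytes.

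In single cells, telocyte-like against Grem1-gated fibroblasts, 7 of 11 tested feedback inhibitors were higher and 0 lower, where 12% of all genes were higher and 14.5% lower, with a median log2 difference of 0.58 beside -0.04 for all genes. Spry4 was higher by 3.38 (edgeR adjusted p = 1.04e-20), Spry1 stood at 176 against 41.0 CPM (edgeR adjusted p = 6.07e-15), Dusp6 was higher by 1.43 and Spry2 by 0.82, while Dusp4 (-0.98) and Dusp5 (-0.35) did not pass. Of 8 tested FGF-induced genes, 2 were higher and 5 lower, with a median of -0.88: Etv1 (3.12, edgeR adjusted p = 1.8e-20) and Ccnd1 (1.91) were higher, and Myc (-1.25), Phlda1 (-1.24), Ier3 (-1.21), Egr1 (-0.97) and Fos (-0.79) lower. The dissociation stress list moved with the lower genes, at 9617, 9887 and 3489 CPM in telocyte-like cells and 17273, 17801 and 9368 CPM in Grem1-gated cells, and its part was not tested. Sulf1 was higher by 1.80 and Sulf2 lower by -4.58. Against other fibroblast-like cells 4 of the 11 inhibitors were higher in telocyte-like cells and 0 lower, where 8.13% of all genes were higher and 10.4% lower. Grem1-gated cells were lower than other fibroblast-like cells in 4, among them Spry1 (-1.03) and Spry2 (-0.48), and higher in 0, where 6.97% were higher and 6.08% lower. Spry1 was thus at 176 CPM in telocyte-like cells, 83.7 in other fibroblast-like cells and 41.0 in Grem1-gated cells (TMM-scaled means of the 2 whole-mesenchyme libraries). These 3 comparisons share their classes and are not independent of one another.

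**Figure D4:**
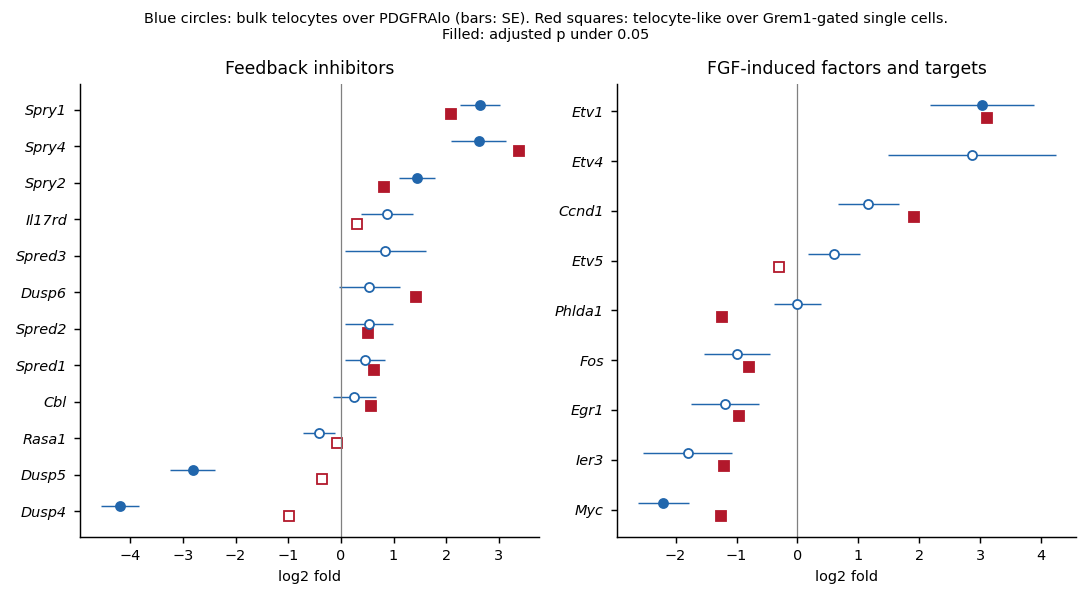
Log2 differences (x axes) of feedback inhibitors and FGF-induced genes, with blue circles for bulk telocytes over PDGFRAlo cells (bars: SE), red squares for telocyte-like over Grem1-gated single cells and filled symbols for adjusted p under 0.05. Spry1, Spry2, Spry4 and Etv1 lie to the right in both data types and Myc to the left.

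The genes whose levels most resembled each FGF gene were ranked by Pearson correlation of log2(CPM + 1), given as a description because the points share populations and libraries. Over the 8 bulk libraries Fgf9 was most like Casq2 (r = 0.990), Papln (0.989) and Qprt (0.988) among 11334 genes, of which 73 exceeded 0.95. Fgf7 was most like Rhou (0.990), Pde3a (0.989) and Xdh (0.988), Fgf10 like Kcns3 (0.991), Bhlhe22 (0.986) and Zfp536 (0.985), and Fgfr3 like Spata13 (0.989). Fgf18 was most like Ppl (0.996), Fgfr4 like S1pr3 (0.995), Fgfr2 like Zfp142 (0.992), Fgf2 like D630003M21Rik (0.999) and Fgfr1 like Kansl3 (0.997), the last 3 with 302, 610 and 430 genes above 0.95. Over 22 single-cell points (11 classes in 2 libraries) Fgf9 was most like Sv2b and Dio2 (both 0.977), followed by the gate marker Bmp3. Fgf7 was most like Mst1r (0.985), Fgf10 like Negr1 (0.979) and Gabra3 (0.978), and Fgfr2 like Cacng7 (0.970) and again Gabra3 (0.963). Fgfr3 had no gene above 0.95 there, with Sybu the nearest (0.931), and no gene named for a ligand in bulk was named for it in single cells.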

How the data were processed

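RNA was measured in 8 bulk libraries (SMART-Seq v4 kit, per the labels' protocols) and in 3 droplet libraries of the 10x V2 assay. Bulk values are whole-number counts per gene, deposited by the authors and made with STAR on mm10, per the submitters' processing notes. No source used here gives the counting program, the gene annotation or whether strand was used. Single-cell values are UMI counts deposited by the authors, made with Cell Ranger 2.1.1 (sorted cells) or 3.0.2 (whole mesenchyme), per the submitters' processing notes. In the bulk data, 26 gene names had become dates and held 0.131% to 0.523% of the counts.

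Bulk counts were fitted with edgeR 4.0.16 in R 4.3.3: TMM scaling, filterByExpr (14893 genes), 1 model of the 4 group means with 4 residual degrees of freedom, and quasi-likelihood F-tests with Benjamini-Hochberg adjustment over all tested genes. RPKM used union exon lengths of the GENCODE annotation of GRCm38. Cells needed 500 genes, under 10% mitochondrial UMIs and a doublet score of at most 0.25 (scrublet in scanpy 1.11.5), a limit chosen because the automatic threshold called 6 doublets in whole mesenchyme 1. This removed 45, 98 and 113 cells from the sorted library and whole mesenchyme 1 and 2. A class needed 3 detected markers (fibroblasts 4) and a lead of 2. UMIs of 11 classes were summed per whole-mesenchyme library and fitted with a library term (11915 genes, 10 residual degrees of freedom, 55 pairs of classes). The SE of each edgeR log2 difference is its size divided by the square root of the F statistic. It is therefore derived from the same test as the p-value beside it. Counting intervals are exact at 95% and cover counting error only. A count of 0 was bounded at 3 counts over the group.

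The members, lists and tests were chosen with earlier results of these data known. From each pathway list, at most 4 called genes with the smallest p and a mean of at least 5 CPM were named, and the 3 genes most like each member were ranked. Exceptions, including the pathway genes named in single cells, were chosen after their values were seen. The fits were tested on simulated data. The alternatives were DESeq2 1.42.0, RLE scaling, no filter on low counts, the replicate number as a block, each library left out (its lone partner taken to vary like the other groups), only the 4 libraries compared, all barcodes, a stricter gate, no library term, thinning to 2500 UMIs and another limit on empty barcodes.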

Additional observations from a re-analysis of the deposited data

How the results depend on the processing

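Of 766 bulk log2 differences recomputed under alternatives, 704 kept their direction and their side of the threshold. In telocytes against PDGFRAlo cells the calls of Fgf7, Fgf9, Fgf10 and Fgfr3 held in each of 13 alternatives (highest adjusted p 0.0331, 0.0094, 0.0334 and 0.00832). The causes of the changes below were not tested. In telocytes against blood endothelium, 2 genes were called lower in place of 1 with DESeq2 and with no filter on low counts, and 1 to 2 with single libraries left out. In blood against lymphatic endothelium 2 to 4 genes were called higher with single libraries left out. In Grem1-gated against other fibroblast-like cells, 1 gene in place of 2 was called lower with DESeq2. With no filter, the log2 difference of Fgf9 between blood and lymphatic endothelium turned to 0.000814 and that of Fgf18 between telocytes and lymphatic endothelium to 0.0268. With a stricter gate, Fgf7 in telocyte-like against other fibroblast-like cells turned to -0.262.

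Deviations of same-numbered libraries from their group means correlated at 0.123 between telocytes and PDGFRAlo cells and at 0.279 between blood and lymphatic endothelium. Between a PDGFRA and an endothelial population they correlated at -0.097 to 0.0213, so a pairing by replicate number was not established. With that number as a block, Fgfr2 in telocytes against PDGFRAlo cells did not pass (-1.72, edgeR adjusted p = 0.0578), and 3 genes in place of 4 were called lower there. The difference of Fgf9 between blood and lymphatic endothelium was then 0.0443 and that of Fgf18 between telocytes and lymphatic endothelium 0.229, both turned in sign, and no other call on the 9 genes changed.

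With single bulk libraries left out, 10 uncalled log2 differences changed sign. Fgfr1 between telocytes and PDGFRAlo cells ran from -0.141 to 0.0382. Between blood and lymphatic endothelium, Fgf9 ran from -0.78 to 3.02, Fgf10 from -0.0309 to 6.18 and Fgf18 from -4.77 to 1.71. Between PDGFRA populations and endothelium, Fgf10 ran from -0.18 to 2.55 and Fgfr3 from -0.648 to 0.0509. Between telocytes and blood endothelium, Fgf7 ran from -0.25 to 1.64, Fgf18 from -1.77 to 4.70 and Fgfr4 from -4.48 to 5.00. Fgf18 between telocytes and lymphatic endothelium ran from -0.43 to 0.38. With either whole-mesenchyme library left out, which leaves no test, 2 differences between telocyte-like and other fibroblast-like cells also changed sign: Fgf2 ran from -0.304 to 0.123 and Fgf7 from -0.474 to 0.693.

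Thinning, which also left out shallower cells, moved the shares of cells with a UMI to 18.3%, 24.3% and 23.0% for Fgf9 in telocyte-like cells, 5.78%, 6.17% and 6.94% for Fgf7 in Grem1-gated cells, 8.42% and 6.80% for Fgf10 and 45.8% and 52.4% for Fgfr2 in other fibroblast-like cells of whole mesenchyme. In the sorted library that class lost 102 of 242 cells, and its shares were 6.20% and 6.43% for Fgf10 and 33.9% and 34.3% for Fgfr2 before and after. At this depth Fgf18 and Fgfr4 could not be tested in single cells.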
